A study of Arabidopsis thaliana with 4 samples.

Results

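The nuclear genes for the subunits of photosystem I, photosystem II and the photosynthetic electron transport chain were examined in the centre of the Arabidopsis rosette. They were chosen by name, from a fixed list of 37 loci for subunits of both photosystems, the cytochrome b6f complex, plastocyanin, ferredoxin, ferredoxin-NADP reductase (FNR) and the chloroplast ATP synthase, with no light-harvesting gene among them. These are 37 of the 32678 loci in the count table. Of the 37, 28 have 1 transcript model in the table and 9 have several. Only the 28 could be given a level, for the reason stated below.

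The study sequenced RNA from 4 untreated cores of the accession Col-0, which make up 1 group, so the data describe a tissue and the spread among its replicates, with no treatment to contrast. Each core was the inner 1.5 to 2 cm of a rosette from soil-grown plants 31 days old, kept at 22 °C under 16 h of light a day at 100 µE per m2 and s, after a cold treatment of the seeds at 4 °C. Such a piece holds the shoot apex together with the bases of leaves, so it is a mixture of cell types. The labels do not state that each core is a separate plant, and p-values here reflect the spread of these 4 samples alone, which can be technical.

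In photosynthesis, photosystem II takes electrons from water and passes them through plastoquinone to the cytochrome b6f complex, plastocyanin carries them to photosystem I, and ferredoxin and FNR pass them on to NADP. The proton gradient built on the way drives the ATP synthase. The reaction centre proteins of these complexes are mostly encoded in the chloroplast, and the peripheral, extrinsic and regulatory subunits described here are encoded in the nucleus and imported.

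The 4 libraries held 5639486 to 7692788 counts, and a count of 0 allows up to 3 counts, or 0.418 to 0.562 CPM. CPM are counts scaled to libraries of 1e6, taken on nuclear loci with 1 model, and intervals and floors cover counting error only. In the table, the mean count of protein-coding loci with 1 model had a median of 55.5, and that of loci with several models 0.5, so loci with several models were given no level here. That is their median, and single loci with several models had more, such as LHCB4.3 with 1477 counts and CA1 with 673 over all models and cores. Among the markers fixed for the tissue, 4 of 6 shoot meristem genes reached 1 CPM in every core, while WUS, which marks the organising centre, had 1 count. The 4 vascular markers, the 2 measured guard cell markers, 2 of 4 pollen markers and 1 of 2 measured senescence markers also reached 1 CPM in every core, and none of 5 root and of 3 seed markers did. All 4 leaf mesophyll markers, among them CA1, are loci with several models, so the share of mesophyll in the cores was not checked.

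Apart from PSBP2, the 28 measured genes were among the most abundant transcripts of nuclear loci with 1 model. Per kb of exon the median level of all 28 was 1239 CPM per kb, against 4.99 CPM per kb over the 20912 nuclear protein-coding loci with 1 model. A mean count under 10 was found in 36.8% of those loci, which lowers their median. In log2 units the members' median was 10.18 ± 0.39 (SD, n = 4). All 28 lay above the median of those loci, 20 stood in the top 1% (209 genes) and 16 among the top 100. Of the 28, 27 reached 100 CPM in every core, and the exception was PSBP2, a gene for an oxygen-evolving subunit, at 20.5 ± 7.18 CPM (SD, n = 4). Together they took 3.54, 2.69, 4.42 and 3.75% of the nuclear counts in cores 1 to 4. The exact binomial 95% intervals were 3.53 to 3.55%, 2.68 to 2.71%, 4.41 to 4.44% and 3.73 to 3.77%. The mean share was 3.60 ± 0.714% (SD, n = 4). The share was highest in core 3 and lowest in core 2, and no pair of intervals overlapped. In a bulk sample, fewer cells of a type and less RNA per cell cannot be told apart.

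**Figure D1:**
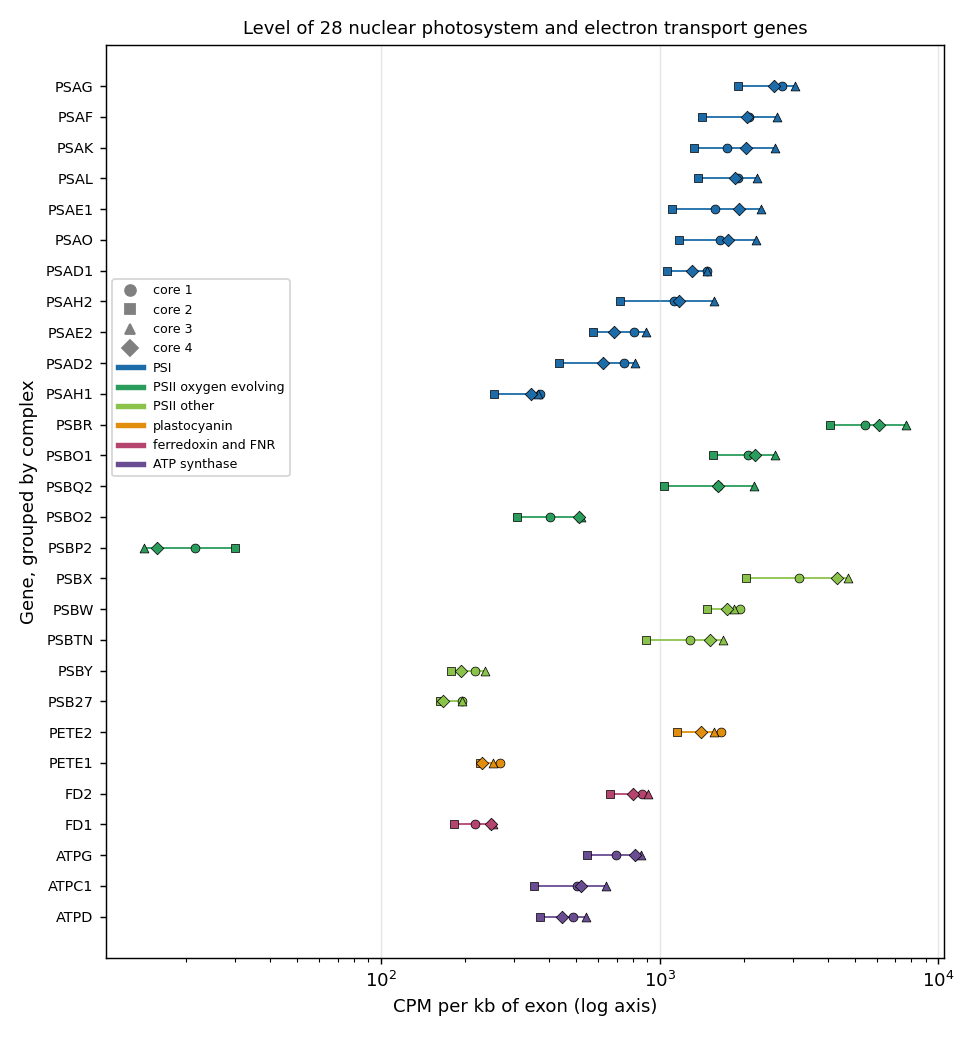
Level of each of the 28 measured genes in CPM per kb of exon (log axis), grouped by complex, with a symbol per core and a line from the lowest to the highest core. PSBR stands farthest right at a mean of 5821 CPM per kb, and PSBP2 stands alone at the left at 20.3 CPM per kb.

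Promoter sequences are shown for 5 members whose data are turned to below: PSBQ2 and PSAH2, among the members with the widest spread between cores and each with 2 copies of CACGTG, PSAF, a highly expressed member with 3 copies of GATAAG, PSBX, the member of the widest spread relative to its level, and PSBP2, whose cores ran in the opposite order. Each runs 5′ to 3′ on the gene's strand, from 250 bases before to 50 bases after the annotated gene start, and was read from the TAIR10.1 assembly with the RefSeq annotation. Capitals mark 4 short motifs on either strand: CACGTG, the G-box core bound by bZIP and bHLH factors, GATAAG, the I-box core known from light-regulated genes, CCAATC, a motif linked to GLK factors, and TATAAA, the TATA box. A motif read on the opposite strand is printed as its reverse complement.
PSBQ2 (chr4:2673194-2673493, minus strand): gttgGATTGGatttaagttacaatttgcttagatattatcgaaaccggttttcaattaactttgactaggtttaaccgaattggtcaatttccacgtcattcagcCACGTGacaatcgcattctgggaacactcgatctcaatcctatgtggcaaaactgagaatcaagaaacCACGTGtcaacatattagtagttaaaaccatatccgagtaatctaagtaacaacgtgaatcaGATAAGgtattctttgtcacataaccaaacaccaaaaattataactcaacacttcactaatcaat
PSAH2 (chr1:19454548-19454847, plus strand): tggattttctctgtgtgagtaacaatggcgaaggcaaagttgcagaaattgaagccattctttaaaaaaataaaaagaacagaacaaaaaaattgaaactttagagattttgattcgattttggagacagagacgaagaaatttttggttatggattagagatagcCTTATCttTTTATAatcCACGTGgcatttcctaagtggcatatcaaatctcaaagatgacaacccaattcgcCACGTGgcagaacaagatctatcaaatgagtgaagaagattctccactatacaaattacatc
PSAF (chr1:11216092-11216391, minus strand): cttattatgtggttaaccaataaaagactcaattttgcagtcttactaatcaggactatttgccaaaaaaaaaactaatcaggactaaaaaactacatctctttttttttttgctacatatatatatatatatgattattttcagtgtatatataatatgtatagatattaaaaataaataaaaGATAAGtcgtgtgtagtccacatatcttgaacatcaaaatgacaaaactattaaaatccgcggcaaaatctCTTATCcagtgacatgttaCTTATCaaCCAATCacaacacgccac
PSBX (chr2:2588399-2588698, minus strand): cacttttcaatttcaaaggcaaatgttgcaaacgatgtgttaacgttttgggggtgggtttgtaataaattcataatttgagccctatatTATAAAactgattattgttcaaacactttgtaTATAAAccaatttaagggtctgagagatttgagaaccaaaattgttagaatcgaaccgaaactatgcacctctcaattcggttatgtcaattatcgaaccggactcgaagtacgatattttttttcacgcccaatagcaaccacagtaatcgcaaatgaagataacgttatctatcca
PSBP2 (chr2:13120150-13120449, minus strand): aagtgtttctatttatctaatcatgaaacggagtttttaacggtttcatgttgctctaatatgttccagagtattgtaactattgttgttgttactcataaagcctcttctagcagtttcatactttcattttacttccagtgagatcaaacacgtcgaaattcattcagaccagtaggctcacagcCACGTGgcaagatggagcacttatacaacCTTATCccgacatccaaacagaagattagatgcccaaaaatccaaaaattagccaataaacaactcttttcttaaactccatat

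PSBQ2 carried CACGTG at positions -145 and -77 from the gene start and GATAAG at -15, and PSAH2 carried CACGTG at -67 and -12 with a TATAAA on the opposite strand at -76. The 3 copies of GATAAG in PSAF lay at -66, 5 and 24, the last 2 on the opposite strand. PSBX held TATAAA at -160 and -128 and none of the other 3 motifs, while PSBP2 held CACGTG at -63 and an opposite-strand GATAAG at -34. Over all 37 members, 13 promoters (35.1%) held CACGTG, against 7.68% of 27437 promoters of protein-coding genes. GATAAG was found in 19 (51.4%), against 14.6% of all promoters. CCAATC stood in 8 (21.6%), against 12.4%, and TATAAA in 18 (48.6%), against 52.2%. On the gene's strand alone, TATAAA was found in 12 members (32.4%) and in 37.2% of all promoters. Among the 189 other genes in the top 1% per kb, 9.52% held CACGTG and 20.6% held GATAAG. A match of letters is a description and does not show a bound site.

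Levels of members with and without a motif were set side by side. The 12 measured members with CACGTG had a median of 1245 CPM per kb, and the 16 without it 1069 CPM per kb. For GATAAG the medians were 1239 CPM per kb in 16 members with it and 1269 CPM per kb in 12 without it. No test was made between these groups of members.

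Photosystem I, which reduces ferredoxin, had 11 measured members with a median of 1696 CPM per kb and a range from 335 to 2569 CPM per kb. Its highest member per kb was PSAG (AT1G55670, TAIR10.1, chromosome 1, 20802670 to 20803449), a membrane subunit next to the light-harvesting antenna. PSAG had 2139, 1489, 2385 and 2001 CPM in cores 1 to 4, a mean of 2004 ± 378 CPM (SD, n = 4), and core 2 lay below the other 3. Of its 50-base stretches, 58.8% also lie in the annotated antisense locus AT1G55673, which was not among the loci counted. PSAF, the subunit that binds plastocyanin on the lumen side, followed with 2507, 1711, 3165 and 2472 CPM. Core 3 was the highest for PSAF and core 2 the lowest, a ratio of 1.85. PSAK, another antenna-side membrane subunit, had 1343, 1018, 1988 and 1574 CPM, or 1925 ± 530 CPM per kb (SD, n = 4). Its neighbours in the order, PSAF (2048 CPM per kb) and PSAL (1847 CPM per kb), were close to it: PSAF stood above PSAK in all 4 cores, and PSAL was above PSAK in cores 1 and 2 and below it in cores 3 and 4.

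PSAL, PSAO and PSAH form the side of photosystem I at which mobile light-harvesting complex II docks. PSAL had 2171, 1567, 2552 and 2130 CPM and PSAO had 1343, 961, 1815 and 1436 CPM. In both genes core 3 was the highest and core 2 the lowest. After each core's median deviation over the 28 members was subtracted, PSAL had the smallest residual SD of the 28, 0.007 on the log2 scale. PSAL is itself among the middle genes that set this median, so its small residual is partly built in and is not a separate result. The lowest photosystem I gene per kb was PSAH1 (AT3G16140, chromosome 3, 5467987 to 5469594), with 484, 331, 477 and 448 CPM. Its exons lie along 53.3% of their length under ROPGEF13 on the opposite strand, which had 1020 to 1652 counts a core, so the level of PSAH1 may include reads of its partner. Its paralog PSAH2 had 793, 504, 1103 and 826 CPM, with the widest ratio of highest to lowest core in the complex, 2.19. PSAH2 lies under ROPGEF11 along 24.8% of its exons, a locus with several models. Of the other 2 photosystem I members, PSAN, a lumenal subunit, had 1 count over all models and cores and PSAP, a thylakoid membrane protein also known as CURT1B, had 62, and neither was given a level.

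PSAD and PSAE, the stromal subunits at which ferredoxin docks, are each encoded by 2 genes. PSAD1 had 1670, 1204, 1677 and 1477 CPM and PSAD2 had 710, 417, 779 and 598 CPM. Within each core the ratio of PSAD1 to PSAD2 per kb was 0.99, 1.28, 0.86 and 1.06 on the log2 scale, a mean of 1.05 ± 0.18 (SD, n = 4). PSAD1 was thus the higher in 4 of 4 cores, and the ratio was widest in core 2, where both genes were at their lowest. PSAE1 had 1258, 882, 1845 and 1533 CPM and PSAE2 491, 348, 541 and 415 CPM. Their log2 ratio was 0.96, 0.94, 1.38 and 1.49 in cores 1 to 4, a mean of 1.19 ± 0.28 (SD, n = 4), with cores 3 and 4 above cores 1 and 2. Of the 50-base stretches of PSAE1, 29.1% also lie in the antisense locus AT4G28755, which overlaps it on the other strand. That locus was not among those counted. Whether its reads entered PSAE1 was not checked, so part of this ratio is uncertain.

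The other pairs gave ratios of either sign. PSAH1 over PSAH2 was -1.60, -1.496, -2.099 and -1.77 in log2 CPM per kb, a mean of -1.74 ± 0.26 (SD, n = 4), with PSAH2 the higher in 4 of 4 cores. Without the length term it was -0.85, since the exons of PSAH1 cover 1300 bases and those of PSAH2 702. FD1 over FD2 was -1.99, -1.86, -1.85 and -1.68, a mean of -1.85 ± 0.13 (SD, n = 4). PSBO1 over PSBO2 was 2.36, 2.33, 2.31 and 2.101, and PETE1 over PETE2 was -2.63, -2.35, -2.64 and -2.61. Of 9 pairs of paralogs in the list, 6 have both genes with 1 model, and every one of the 6 had the same gene higher in 4 of 4 cores. In each the two-sided exact sign-flip permutation test over cores gave p = 0.13, the smallest that 4 cores allow, so none could pass 0.05. The coding sequences of the 6 pairs were 74.5 to 88.0% identical, with longest identical runs of 17 bases (PETE) to 35 bases (PSAD). No stretch of 50 bases was shared between the genes of any pair. How reads with several places were counted is not given by the sources.

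**Figure D2:**
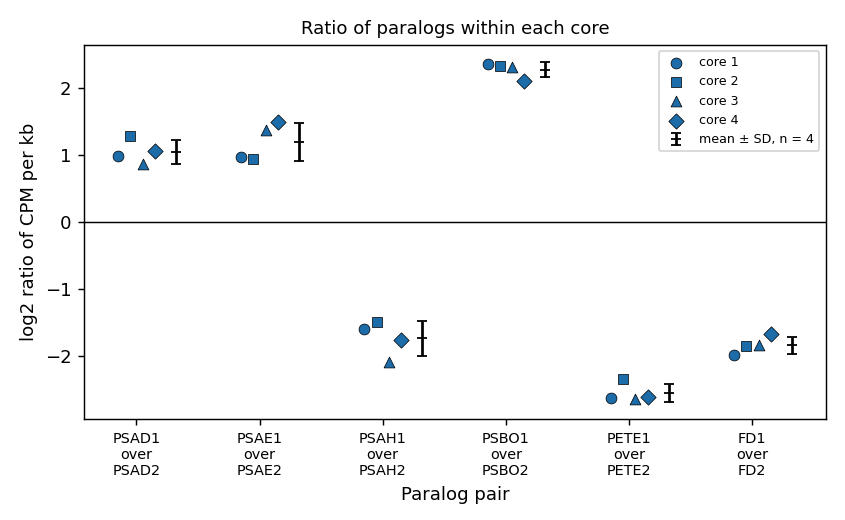
Log2 ratio of CPM per kb of the first-named over the second-named gene of 6 paralog pairs (vertical axis), with a symbol per core and the mean ± SD beside it. Every pair keeps its side of 0 in all 4 cores, and PSAE1 over PSAE2 has the widest spread (SD 0.281).

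In photosystem II, the oxygen-evolving group had 5 measured members with a median of 1614 CPM per kb. These lumenal proteins shield and stabilise the manganese cluster that splits water. PSBR (AT1G79040, chromosome 1, 29735952 to 29737009), a small subunit that helps to attach the extrinsic proteins, was the highest of all 28 members and the 4th gene of the 20912 ranked per kb. It had 4280, 3192, 5987 and 4797 CPM, a mean of 4564 ± 1161 CPM or 5821 ± 1481 CPM per kb (SD, n = 4), and core 3 exceeded core 2 by a ratio of 1.88. PSBO1, the main manganese-stabilising protein, had 3115, 2332, 3903 and 3324 CPM, and its paralog PSBO2 535, 409, 690 and 682 CPM. Cores 3 and 4 were almost level in PSBO2, whereas PSBO1 stood higher in core 3. PSBQ2, an extrinsic subunit that helps to hold chloride and calcium, had 2057, 1318, 2778 and 2053 CPM. Cores 1 and 4 were almost equal for PSBQ2, with core 3 above and core 2 below them.

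PSBP2 (AT2G30790, chromosome 2, 13118937 to 13120199) stood apart in level and in the order of its cores. It had 21.8, 30.2, 14.3 and 15.9 CPM from 156, 204, 92 and 85 counts. It was the only member of the 28 that was highest in core 2 and lowest in core 3. At 20.3 CPM per kb it ranked 5559th of 20912 genes, while the other 27 measured members were in the top 5%. Its annotated coding sequence has 378 bases, against 792 for PSBP1, its paralog, and the 2 are 84.4% identical over the aligned part. PSBP1, which encodes the main form of this extrinsic subunit, had 2 counts over all its models and cores, and PSBQ1 had none. Both have several models and were not given a level.

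The remaining photosystem II subunits had a median of 1342 CPM per kb over 5 measured members. PSBX (AT2G06520, chromosome 2, 2587729 to 2588448), a small membrane subunit, was the highest with 2275, 1471, 3403 and 3112 CPM, or 3563 ± 1211 CPM per kb (SD, n = 4; rank 7 of 20912). Cores 3 and 4 were both far above core 2, by up to a ratio of 2.31. PSBW, which stabilises the supercomplex with the antenna, behaved more evenly, with 1867, 1411, 1776 and 1676 CPM and its highest value in core 1. PSBTN, a small lumenal subunit, had 1017, 712, 1337 and 1200 CPM. The lowest of the group were PSBY, a small membrane subunit, with 265, 216, 287 and 235 CPM, and PSB27, which acts in assembly and repair of the complex, with 257, 214, 258 and 219 CPM. In PSB27 the highest core exceeded the lowest by a ratio of 1.201 only. PSBS, the sensor of lumen acidity in non-photochemical quenching, had 26 counts over its models and was not given a level.

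Of the chain between the photosystems, only plastocyanin was given a level. Both listed cytochrome b6f genes, PETC for the Rieske protein and PETM for a small subunit, have several models and had 0 and 15 counts. PETE2, the major plastocyanin gene, had 2232, 1553, 2117 and 1899 CPM and PETE1 281, 237, 264 and 241 CPM. In both genes core 1 was the highest and core 2 the lowest. The CV of PETE1 over cores was 8.02%, the smallest of the 28.

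On the acceptor side, FD2, the major leaf ferredoxin, had 853, 653, 894 and 788 CPM, and FD1 had 186, 156, 215 and 213 CPM. Cores 3 and 4 were level in FD1, and core 3 was highest in FD2. The genes FNR1 and FNR2 had no counts in any core and have several models. Of the ATP synthase, ATPG, for a subunit of the stator stalk, had 775, 613, 954 and 910 CPM. ATPC1, for the rotating gamma subunit, had 771, 537, 979 and 795 CPM, and ATPD, for the delta subunit at the top of the stator, had 564, 428, 628 and 514 CPM. In all 3 genes core 3 was the highest and core 2 the lowest.

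By complex, photosystem I took 40.5 ± 0.653% of the members' counts, the oxygen-evolving group 28.6 ± 0.984%, other photosystem II subunits 16.0 ± 0.751%, plastocyanin 6.21 ± 0.831%, ATP synthase 5.88 ± 0.160% and ferredoxin 2.78 ± 0.278% (SD, n = 4 each). The plastocyanin share was 6.93, 6.90, 5.31 and 5.69% in cores 1 to 4, so it was lower in cores 3 and 4. The median level per kb of plastocyanin (846 CPM per kb, 2 genes), ferredoxin (517, 2 genes) and ATP synthase (507, 3 genes) lay below those of both photosystems. The first 2 are midpoints of unequal paralogs: PETE1 at 244 and PETE2 at 1448, and FD1 at 225 and FD2 at 809 CPM per kb. PETE2 alone stood above the median of the other photosystem II subunits (1342). On the log2 scale the photosystem I median was 10.66 ± 0.42 and that of all 10 measured photosystem II genes 10.45 ± 0.38 (SD, n = 4 each). Within the cores the photosystem I median exceeded that of photosystem II by 0.13, 0.20, 0.33 and 0.17, a mean of 0.21 ± 0.09 (SD, n = 4), in 4 of 4 cores (two-sided exact sign-flip permutation test, p = 0.13). Without the length term the excess was 0.06 (exact p = 0.5) and with summed models 1.65, so its size depends on both choices.

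All 28 members passed the filter on low counts, and all 28 varied between cores beyond counting noise in a chi-square test of their counts (Benjamini-Hochberg adjusted over 12771 genes). The same test called 64.0% of all genes tested. Among tested genes with a mean of 100 CPM or more it called 92.5%, so at these depths a call says little about a gene. The largest adjusted p among the members was 1.19e-06, for PETE1. Relative to genes of the same level, 0 of 28 members and 0 of 12771 genes passed by edgeR's quasi-likelihood fit. At an unadjusted p under 0.05 the same fit had 0 members and 661 genes (5.18%). The ratio of a gene's quasi-dispersion to the trend at its level was above 1 in 21 of 28 members, against 47.5% of all genes tested. Its median was 1.58 over the members and 0.927 over all genes tested. Without core 2 the members' median was 0.856 and without core 4 it was 1.92. The corresponding DESeq2 ratio was 1.12 for the members and 0.384 for all genes tested.

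The members with the widest spread relative to their level came from both photosystems. PSBX had a ratio of quasi-dispersion to trend of 4.44, PSAH2 of 4.02, PSBP2 of 3.99, PSAE1 of 3.52 and PSBQ2 of 3.12. The promoters of 4 of these 5 genes are printed above, and no motif of the 4 searched was present in all of them. PETE1 (0.298), PSB27 (0.467), PSBW (0.515), PSBY (0.735) and FD2 (0.745) had the lowest ratios. None of these 10 genes passed the test relative to genes of the same level, with adjusted p from 0.984 to 0.998 by edgeR. The median CV of the members was 19.9%, against 14.0% for tested genes with a mean of 100 CPM or more.

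**Figure D3:**
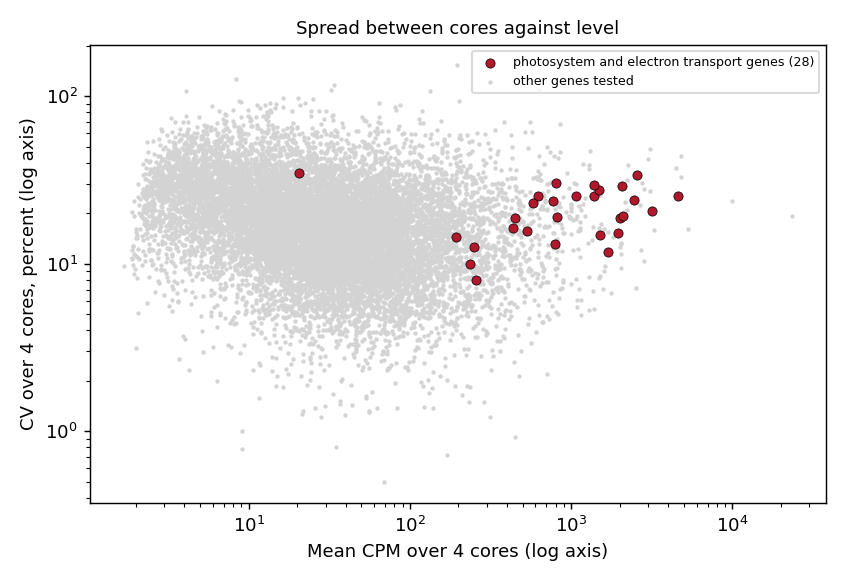
Coefficient of variation over the 4 cores in percent against mean CPM (both log axes) for the 28 measured members (red) and the other genes tested (grey). The members, apart from PSBP2 at 20.5 CPM, lie at the right, with CVs from 8.02% (PETE1) to 34.01% (PSBX).

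The members moved together across the cores. Of the 28, 27 were lowest in core 2 (28.5% of all genes tested) and 23 were highest in core 3 (32.1% of all). The 23 were both highest in core 3 and lowest in core 2, which held for 14.2% of all genes tested. Among tested genes with a mean of 100 CPM or more, 39.9% were lowest in core 2, 33.0% were highest in core 3 and 20.5% were both. Of the 27 members at that level, 27 were lowest in core 2, 23 were highest in core 3 and 23 were both. The other members were PSAH1, PSBW, PETE1 and PETE2, highest in core 1 (20.3% of all), and PSBP2, highest in core 2 (27.4% of all). No member was highest in core 4 (20.2% of all).

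The median deviation of the members from their own mean over cores was 0.06, -0.41, 0.29 and 0.04 on the log2 scale in cores 1 to 4. Over all genes tested the medians were 0.01, -0.0002, 0.02 and -0.002. The median deviation was below 0 in core 2 in each complex with measured members. In core 2 it was -0.49 for photosystem I, -0.47 for the oxygen-evolving group, -0.39 for ATP synthase, -0.28 for ferredoxin, -0.25 for other photosystem II subunits and -0.21 for plastocyanin. In core 3 the same medians ran from 0.35 for photosystem I to 0.09 for plastocyanin. Plastocyanin was highest in core 1, at 0.17. Single genes spanned a wider range, and the lowest value in core 2 was -0.73, in PSBX. With these cores as 1 group, the order of the cores has no contrast to test, and the members are not replicates of a core.

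**Figure D4:**
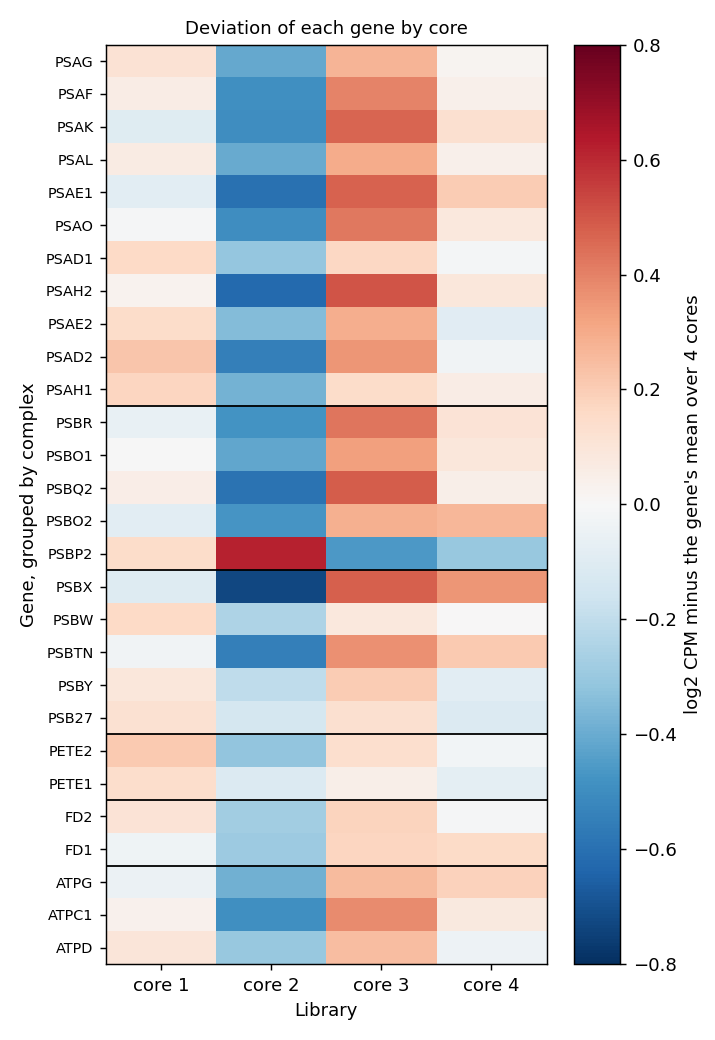
Log2 CPM of each of the 28 members minus its mean over the 4 cores (colour scale from -0.8 to 0.8), with genes grouped by complex and cores in columns. The core 2 column is blue for 27 of 28 genes and the core 3 column red for the same number, with PSBP2 reversed.

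Other measures also differed between the cores, some in the order of the members and some not. STM and KNAT1, homeobox genes that maintain the shoot meristem, ran against the members. STM had 193, 315, 97.0 and 162 CPM in cores 1 to 4 and KNAT1 152, 287, 98.4 and 108 CPM. Both were highest in core 2 and lowest in core 3. The median of all 6 meristem markers was 3.85, 4.24, 3.71 and 3.79 in log2 CPM per kb, highest in core 2 and lowest in core 3. It lay midway between CUC2 and KNAT1 in every core, so its order is that of KNAT1 and not a separate result for all 6. The summed level of all 6, 1489, 1286, 1286 and 1363 CPM, did not show this order. It was mostly PDF1, an epidermal gene with 1139, 678, 1085 and 1087 CPM. The median of the deviations of all 6, 0.09, 0.02, -0.46 and 0.02, was lowest in core 3 but not highest in core 2. Its core 3 value lies midway between LAS (-0.56) and WUS (-0.37). These had 31 counts and 1 count over all cores, so that value rests on genes near the floor. PDF1 and CUC2 were lowest in core 2. CUC2 had 3.90, 3.55, 4.97 and 5.06 CPM and did not vary beyond counting noise (adjusted p = 0.526, chi-square test). WUS and LAS did not reach 1 CPM in every core. The 4 vascular markers summed to 277, 250, 292 and 245 CPM, but they differed among themselves. The phloem genes SUC2 and SEOR1 were highest in core 3, at 102 and 109.8 CPM, while the xylem genes XCP2 and CESA7 were lowest there, at 63.8 and 15.7 CPM. The 2 measured guard cell markers summed to 33.2, 21.3, 35.9 and 28.9 CPM. KAT1, a guard cell channel gene, was highest in core 3 and FAMA, a guard cell regulator, in core 1. The chloroplast's own loci took 2.37, 2.38, 3.80 and 2.72% of the counts on loci with 1 model, and the mitochondrial loci 0.566, 0.707, 1.35 and 0.854%, both highest in core 3. In core 2, where the members were lowest, the chloroplast share was almost that of core 1 and the mitochondrial share was above it. The part of cell makeup and of organelle counts in the members' shift was not tested.

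Related photosynthesis genes were set beside the members within the same cores. The 16 measured light-harvesting genes encode the antenna proteins of both photosystems. The median log2 CPM per kb was 10.18 for the members and 9.45 for the antenna genes. The members' median exceeded theirs by 0.73 ± 0.16 (SD, n = 4) and in 4 of 4 cores (exact sign-flip permutation test, two-sided p = 0.13, the smallest possible). Without the length term the excess was 0.11 (exact p = 0.375), and with loci of several models added by their summed counts it was 2.77, so its size depends on both choices. The antenna list was far wider than the members: LHCB1.3 had 23419 ± 4524 CPM and LHCB6 3065 ± 834 CPM, while LHCB2.1 had 70.3 ± 13.2 CPM and LHCB7 15.6 ± 2.46 CPM (SD, n = 4 each). Near-identical LHCB1 and LHCB2 copies can share reads, so their split is uncertain. Of the 16, 10 were highest in core 3 and 11 lowest in core 2.

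The median of the 10 measured Calvin cycle genes lay below that of the members in 4 of 4 cores. The difference was 1.505 ± 0.25 in log2 CPM per kb (SD, n = 4), 0.45 without the length term and 4.04 with summed models. GAPA1, for a subunit of the chloroplast glyceraldehyde-3-phosphate dehydrogenase, had 2736 ± 833 CPM and RBCS2B, for a Rubisco small subunit, 1317 ± 619 CPM (SD, n = 4 each). The lowest of the list per kb were RPI3, an isomerase gene, with 109.9 to 172 CPM and CP12-2, a regulatory protein gene, with 72.2 ± 9.28 CPM (SD, n = 4). RBCS2B had 946, 639, 1863 and 1819 CPM, so cores 3 and 4 stood together above cores 1 and 2. Whether reads were shared between RBCS2B and the other RBCS genes was not checked.

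Transcripts for accessory proteins of the same membranes had medians far below that of the subunits. The median of the cyclic electron flow and accessory genes lay 3.94 ± 0.14 below that of the members in log2 CPM per kb. That of the photosystem assembly genes lay 4.38 ± 0.23 below (SD, n = 4 each), both in 4 of 4 cores. Without the length term the differences were 3.43 and 3.46, and with summed models 4.13 and 3.66. The lists overlapped: PPL1 (195 CPM per kb) and NDHL (186) stood above the member PSB27 (180). Among the 12 measured accessory genes, PPL1, related to PSBP, had 215 ± 49.1 CPM and NDHL, a subunit of the chloroplast NDH complex, 153 ± 38.3 CPM. STN7, the kinase of state transitions, had 39.5 ± 3.29 CPM. ATPC2, the second gamma subunit gene, had 21.3 ± 4.65 CPM, against 771 ± 181 CPM for ATPC1. Of the 8 measured assembly genes, HCF136, needed to build photosystem II, had 266 ± 63.8 CPM and Y3IP1, which acts in photosystem I assembly, 129 ± 35.9 CPM. HCF101, an iron-sulphur scaffold for photosystem I, had 81.8 ± 18.8 CPM and LPA1, a photosystem II assembly factor, 71.5 ± 15.9 CPM. All 8 were lowest in core 2 and 7 were highest in core 3. NDHL lies under an opposite-strand gene along 52.4% of its exons.

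The other ferredoxins measured lay below FD1 and FD2 per kb. FD3, the root-type ferredoxin, had 64.8, 74.6, 52.5 and 58.3 CPM, and was highest in core 2 and lowest in core 3, unlike FD1 and FD2. FD4 had 2 counts in all, and FDC1 had 114 ± 22.5 CPM but lies wholly under an opposite-strand gene. FDC2 and the root FNR genes RFNR1 and RFNR2 have several models. FD2 at 809 CPM per kb and FD1 at 225 CPM per kb both stood above FDC1 at 166 CPM per kb and FD3 at 63.2 CPM per kb.

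The median of the regulators of photosynthesis genes lay far under that of the subunits in 4 of 4 cores. It was 5.41 ± 0.27 lower in log2 CPM per kb (SD, n = 4), 3.98 lower without the length term and 5.54 with summed models. GUN4, at 191 CPM per kb, stood above the member PSB27 at 180 CPM per kb. GLK2, a transcription factor of chloroplast development, had 171, 156, 186 and 139 CPM, and GLK1, its partner, has several models. GNC and CGA1, GATA factors that promote chloroplast development, had 34.9 ± 10.6 and 10.04 ± 4.54 CPM. CGA1 had 11.3, 4.73, 15.5 and 8.62 CPM, highest in core 3 and lowest in core 2. HY5, a bZIP factor of light signalling, had 14.3 ± 0.818 CPM and did not vary beyond counting noise (adjusted p = 0.838, chi-square test over 12771 genes).

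The sigma factors, which direct the chloroplast polymerase, had 72.3 ± 20.8 (SIG2), 61.0 ± 7.56 (SIG3), 19.6 ± 4.01 (SIG4), 10.3 ± 1.61 (SIG5) and 67.4 ± 11.2 CPM (SIG6). GUN1 and GUN4, which act in signalling from the chloroplast to the nucleus, had 201 ± 59.2 and 248 ± 53.9 CPM (SD, n = 4 each). GUN4 lies along 73.0% of its exons under an opposite-strand gene. SIG1, PIF1 and PIF3 have several models. Of the 11 measured regulators, 9 were highest in core 3 and 7 lowest in core 2.

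**Figure D5:**
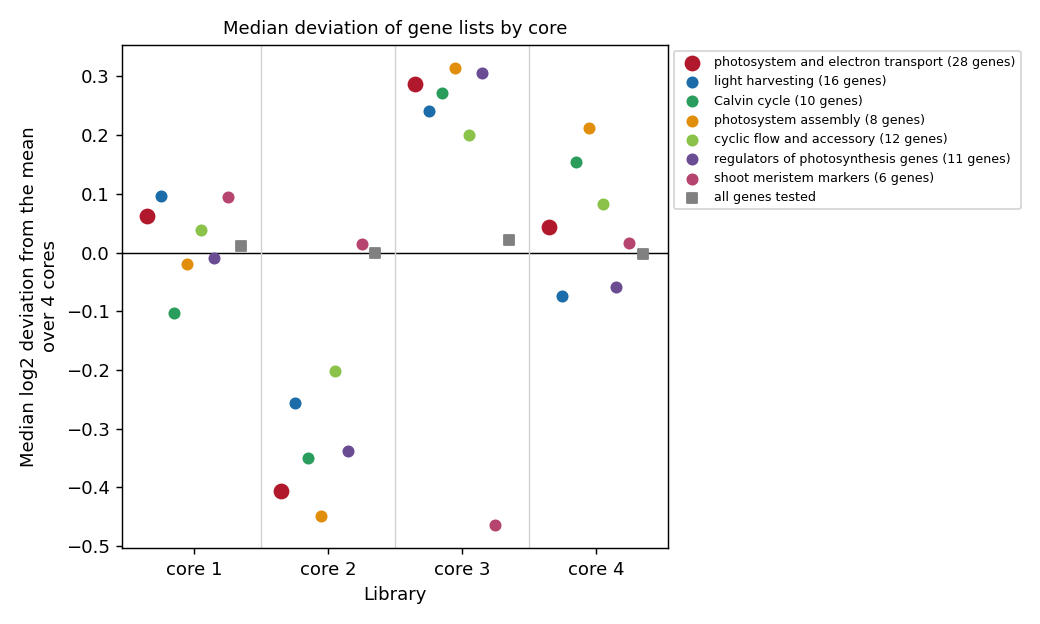
Median deviation of each gene list from its genes' own means over the 4 cores, in log2 units, for the 28 members, 5 related photosynthesis lists, 6 shoot meristem markers and all genes tested. The core 3 value of the meristem markers is set by LAS and WUS, with 31 counts and 1 count over all cores. In core 2 all 6 photosynthesis lists lie below 0, from -0.20 to -0.45, and in core 3 above it, while the median of all genes tested stays near 0.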

How the data were processed

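Per the labels' protocols, RNA of 4 rosette cores was depleted of ribosomal RNA, and strand-specific libraries were read on an Ion Proton with Torrent Suite 4.0.2. The submitters' processing notes name HTSeq and TAIR10. The aligner and its settings, and the settings of HTSeq, are not given in those sources. Raw counts were deposited by the authors, 1 row per transcript model (40745 rows), with no normalization by the authors.

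From these counts, CPM were computed on 26516 nuclear loci with 1 model after TMM scaling, and divided by exon length from the RefSeq annotation of TAIR10.1, in which 31904 loci matched. Loci with several models entered no level or test. Low genes were removed with filterByExpr (minimum count 10). With 1 group the quasi-likelihood fit has no contrast, so the gene's dispersion was tested against the trend, one-sided. A chi-square test of Poisson heterogeneity was run beside it, with Benjamini-Hochberg adjustment and a threshold of 0.05. Paralog ratios used a prior count of 0.5. Both tests were checked on simulated counts. For the test against the trend these had a fixed dispersion that was not fitted to the cores. The check therefore does not show what that test could detect here. R 4.3.3, edgeR 4.0.16 and DESeq2 1.42.0 were used. Library totals were 7692788, 6821456, 6998463 and 5639486 counts in cores 1 to 4.

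The members and lists were chosen with earlier results of these data known. The rule names all 37 members, the 2 highest and 2 lowest genes per kb of each related list, and all regulators. It also names all genes of the list of other ferredoxins and FNR, and the 5 members of highest and of lowest dispersion ratio. Values by core of RBCS2B and the cell type markers, and those of LHCB4.3 and CA1, were chosen after they were seen. Alternatives were other scalings, filters, prior counts, length terms and leaving out each core. Protein features planned for the members were not analysed here.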

Additional observations from a re-analysis of the deposited data

Results flagged for a closer look

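Of 47 groups of 4 core values checked, 2 had a core whose distance from the others took up most of the range, and chance alone sets about 1 in 20 groups apart in this way. The log2 ratio of PSBO1 over PSBO2 was 2.101 in core 4, below the 2.31 to 2.36 of the other cores. The log2 ratio of PETE1 over PETE2 was -2.35 in core 2, above the -2.64 to -2.61 of the others. In both pairs the same gene was the higher in all 4 cores.

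Among members with several transcript models, which entered no comparison, PSAP had 62 counts over all models and cores, PSBS 26 and PETM 15. The limit of 3 that a count of 0 allows holds for a single core. By core, PSAP had 25, 11, 14 and 12 counts and PSBS 9, 8, 5 and 4, all above it. PETM had 7, 2, 3 and 3 counts, above it in core 1 only. The other 6 such members had 0 to 2 counts.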

How the results depend on the processing

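No paired analysis was possible because there was 1 group. Among the alternatives tried for the main comparisons, 136 values kept their direction and side of the threshold or, with no test, stayed within the spread, 2 moved beyond it and none was reversed. With counts summed over transcript models, the members' median level was 9.27 in log2 CPM per kb, against 10.18, because 9 loci near 0 then enter. The median ratio of dispersion to trend was 1.58, from 0.856 (without core 2) to 1.92 (without core 4). Without each core in turn the level ran from 10.06 to 10.34, the share of counts from 3.33 to 3.91%, and the genes called beyond counting noise from 6475 to 7526. With nuclear totals and no scaling factor, 25 members were lowest in core 2, against 27. The excess over light-harvesting genes was 0.11 with no length term and 2.77 with summed models, and over Calvin cycle genes 0.45 and 4.04. The excess of photosystem I over photosystem II, an addition made after seeing the data, was 0.21, from 0.17 to 0.23 without each core, 0.06 with no length term and 1.65 with summed models. With 4 cores no sign-flip test could pass, so for those results the side of the threshold was fixed in advance. Their part of the 136 values speaks of direction only and not of size. Most loci with several models, the 9 members among them, were near 0 in counts.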
